A study of Mus musculus with 6 samples.

Results

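The RNA of 10 receptor chains for hematopoietic cytokines was followed in mouse leukemia cells after panobinostat or vehicle. They are Csf2rb and Csf2rb2, the beta chains of the mouse IL-3, IL-5 and GM-CSF receptors, Csf2ra, Il3ra and Il5ra, the alpha chains that pair with them, Il2rg, the common gamma chain, Il4ra and Il9r, which pair with it, Epor, the erythropoietin receptor, and Il1rl1, the IL-33 receptor. These genes were chosen from earlier results of this same comparison, on its read counts, and found by Entrez gene ID, so their values in it are given as a description and support nothing by themselves. All 10 were found among the 27179 genes of the count table, and all 10 were among the 12916 genes abundant enough to test.

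The cells came from an acute myeloid leukemia of C57BL/6 mice that the labels name A/E9a;NRASG12D, for a RUNX1-RUNX1T1 fusion in a spliced form and a mutated NRAS that all 6 libraries share. The treated mice received panobinostat, an inhibitor of histone deacetylases, and the control mice received vehicle, each for 3 days. From the spleen, GFP-positive cells that excluded propidium iodide, a stain of dead cells, were sorted for 3 libraries per group. The labels describe 1 leukemia line and give neither the age nor the sex of the mice. The series title calls the tumor cells WT without naming the gene this refers to, and it asks about plasmacytoid dendritic cells and differentiation through the type I interferon receptor.

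Class I cytokine receptors have no kinase of their own. In most of those followed here, a ligand-specific chain and a shared signalling chain join around the cytokine, while Epor acts as a pair of itself. Bound JAK kinases phosphorylate the receptor, and STAT factors carry the signal to the nucleus. These are mainly STAT5 below the beta chains and the erythropoietin receptor and STAT6 below the IL-4 receptor. Csf2rb serves the receptors for GM-CSF, IL-3 and IL-5, and Csf2rb2, a copy found in the mouse, serves IL-3 together with Il3ra. Il1rl1 is of another family: it joins Il1rap and signals through Myd88 and the IRAK kinases, and is a known surface receptor of mast cells.

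Promoter sequences of the members that differed by over 2-fold and of Epor are shown because the position of a gene's start and its promoter letters were not used to choose it. RefSeq's table for GRCm38.p6 held windows of 300 bases, from 250 before to 50 after the start, for 9 of the 10 members. Csf2rb had no entry. The window of Il9r starts 5.0 kb inside the gene's outer end, and those of Il1rl1 start 24.7 and 34.8 kb inside, so distances between genes are not counted from these starts. Letters are 5′ to 3′ on the strand of the gene, and capitals mark every match, on either strand, to the searched motifs.
Csf2rb2 promoter, chr15:78305672-78305971, minus strand: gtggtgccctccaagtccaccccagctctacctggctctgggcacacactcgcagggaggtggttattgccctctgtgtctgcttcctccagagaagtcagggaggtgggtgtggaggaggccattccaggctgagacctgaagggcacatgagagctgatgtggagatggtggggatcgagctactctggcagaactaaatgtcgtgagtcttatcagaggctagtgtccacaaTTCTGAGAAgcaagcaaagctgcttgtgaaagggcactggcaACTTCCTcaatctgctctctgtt
Il5ra promoter, chr6:106748988-106749287, minus strand: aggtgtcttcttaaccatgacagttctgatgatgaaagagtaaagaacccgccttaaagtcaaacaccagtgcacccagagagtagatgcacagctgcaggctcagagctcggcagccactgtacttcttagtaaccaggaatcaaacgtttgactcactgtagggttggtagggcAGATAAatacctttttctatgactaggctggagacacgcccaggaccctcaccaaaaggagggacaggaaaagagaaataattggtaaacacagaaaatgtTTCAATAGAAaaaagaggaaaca
Il9r promoter, chr11:32200230-32200529, minus strand: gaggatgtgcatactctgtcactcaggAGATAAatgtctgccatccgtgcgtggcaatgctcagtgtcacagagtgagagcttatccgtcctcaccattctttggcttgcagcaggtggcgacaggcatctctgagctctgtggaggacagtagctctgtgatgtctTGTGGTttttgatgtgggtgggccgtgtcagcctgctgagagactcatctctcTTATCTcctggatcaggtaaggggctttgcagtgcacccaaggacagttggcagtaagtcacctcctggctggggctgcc
Epor promoter, chr9:21963527-21963826, minus strand: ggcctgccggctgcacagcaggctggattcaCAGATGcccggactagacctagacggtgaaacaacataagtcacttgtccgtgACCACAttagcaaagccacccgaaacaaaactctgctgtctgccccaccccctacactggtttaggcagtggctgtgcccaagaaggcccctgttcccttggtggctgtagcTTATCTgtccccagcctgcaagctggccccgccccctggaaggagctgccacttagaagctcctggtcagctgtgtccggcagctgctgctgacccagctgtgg

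The GATA motif was searched as AGATAA and stood in the windows of 4 members, Il5ra, Il9r, Epor and Il1rl1, and in 11.2% of all 32851 promoter windows. Il9r held it on both strands, and each of the 2 windows of Il1rl1 held it too. The STAT motif with 3 free bases, TTCNNNGAA, stood in Csf2rb2 and in 8.30% of all windows. The STAT motif with 4 free bases, the form STAT6 prefers, stood in Il5ra and in 6.95% of all windows. The ETS motif AGGAAGT stood in Csf2rb2 and Il3ra and in 9.35% of all windows. The E-box CATCTG, bound by partners of GATA factors, stood in Csf2ra and Epor and in 17.2% of all windows. The RUNX motif TGTGGT stood in Il2rg, Il9r, Epor and the downstream window of Il1rl1, and in 16.8% of all windows. No member window held the core of the interferon-stimulated response element, and 3.44% of all windows did. A match describes the letters of a window and is not evidence of binding.

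Libraries carry here the leading number of their count column, which is 1, 5 or 6 for panobinostat and 2, 3 or 4 for vehicle. The column names hold 2 further numbers whose meaning no label gives. The first of them is 4, 3 and 4 in panobinostat libraries 1, 5 and 6 and 1, 1 and 2 in vehicle libraries 2, 3 and 4. It shares no value between the groups, so whatever it marks cannot be told apart from treatment. The last of them is 1 for panobinostat library 1 and 3 for the other 5 libraries. Total counts of the libraries lay between 25794869 and 32571961. A single count was thus worth between 0.0315 and 0.0403 CPM (counts scaled to library size with TMM factors). Hemoglobin genes took 6.73%, 3.72% and 3.22% of counts in panobinostat libraries 1, 5 and 6, against 0.773%, 0.848% and 0.615% in vehicle libraries 2, 3 and 4. Panobinostat library 1 thus stood apart in hemoglobin within its group. The 16 erythroid markers found, of 17 listed, summed to between 37670 and 81610 CPM with panobinostat and between 11030 and 12720 CPM with vehicle. Globin genes that the hemoglobin share also counts are among them. Of these, Hbb-b1 and Hba-a2 were at 24240 and 24040 CPM in panobinostat library 1. The 15 mast cell markers, led by Hdc, the histamine-making enzyme, and Ms4a2, a chain of the IgE receptor, summed to 1638, 4206 and 2994 CPM in panobinostat libraries 1, 5 and 6 and to 1965, 2550 and 2188 CPM in vehicle libraries 2, 3 and 4. The 13 megakaryocyte markers summed to 543 to 733 CPM with panobinostat and 307 to 350.4 CPM with vehicle. The 9 plasmacytoid dendritic cell markers, mostly Bst2, which interferon also induces, summed to 163 to 251 CPM with panobinostat and 79.4 to 92.6 CPM with vehicle. The 8 basophil markers, which include genes shared with mast cells and megakaryocytes, summed to 356, 820 and 549 CPM in panobinostat libraries 1, 5 and 6 and to 321, 470.5 and 393 CPM in vehicle libraries 2, 3 and 4. The 12 NK and innate lymphoid cell markers, with Areg at 0, were mostly Gata3. They summed to 37.5 to 62.4 CPM with panobinostat and 83.7 to 99.4 CPM with vehicle. Gata3 alone was at 34.1, 49.9 and 54.5 CPM in panobinostat libraries 1, 5 and 6. It was at 81.95, 85.5 and 97.5 CPM in vehicle libraries 2, 3 and 4. Of the 12 markers, 9 were too low to test. The 12 T cell markers summed to 1.61 to 2.87 CPM with panobinostat and 1.42 to 2.33 CPM with vehicle, and the 10 B cell markers to 7.86 to 23.1 CPM with panobinostat and 15.5 to 16.5 CPM with vehicle. The 13 neutrophil markers summed to 4.63 to 11.0 CPM with panobinostat and 5.07 to 11.1 CPM with vehicle. The 13 macrophage markers summed to 19.3 to 53.6 CPM with panobinostat and 15.1 to 20.1 CPM with vehicle. The 8 conventional dendritic cell markers, led by Zbtb46, summed to 21.8 to 25.3 CPM with panobinostat and 9.665 to 13.3 CPM with vehicle. The 8 eosinophil markers, with Epx at 0, summed to 18.8 to 28.6 CPM with panobinostat and 12.4 to 17.55 CPM with vehicle. In bulk RNA, fewer cells of a type and less RNA per cell cannot be told apart.

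A gene is called here when edgeR's quasi-likelihood test gave it an adjusted p under 0.05 over all 12916 tested genes. Of those genes 21.0% were called, 11.3% higher and 9.72% lower with panobinostat, and in 44.6% the groups did not overlap. Among the 10 receptor genes 6 were called, each of them higher: Csf2rb, Csf2rb2, Csf2ra, Il5ra, Il4ra and Il9r. The groups did not overlap in 7, those 6 and Il2rg, and overlapped in Il3ra, Epor and Il1rl1. The median log2 fold change was 0.706 over the members and 0.01 over all tested genes. Since this comparison chose the members, nothing is read from these shares. The gene lists used here were also chosen with earlier results of these data known, and nothing is read from their shares. Several calls were lost when 1 vehicle library was left out. Then 2 members, Il5ra and Il4ra, were called without vehicle library 2 and 1, Il5ra, without vehicle library 4. Without vehicle library 2, 3 or 4, or panobinostat library 5, the genes called in the whole table numbered 609, 1259, 438 and 1637, against 2715 with all 6 libraries.

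**Figure D1:**
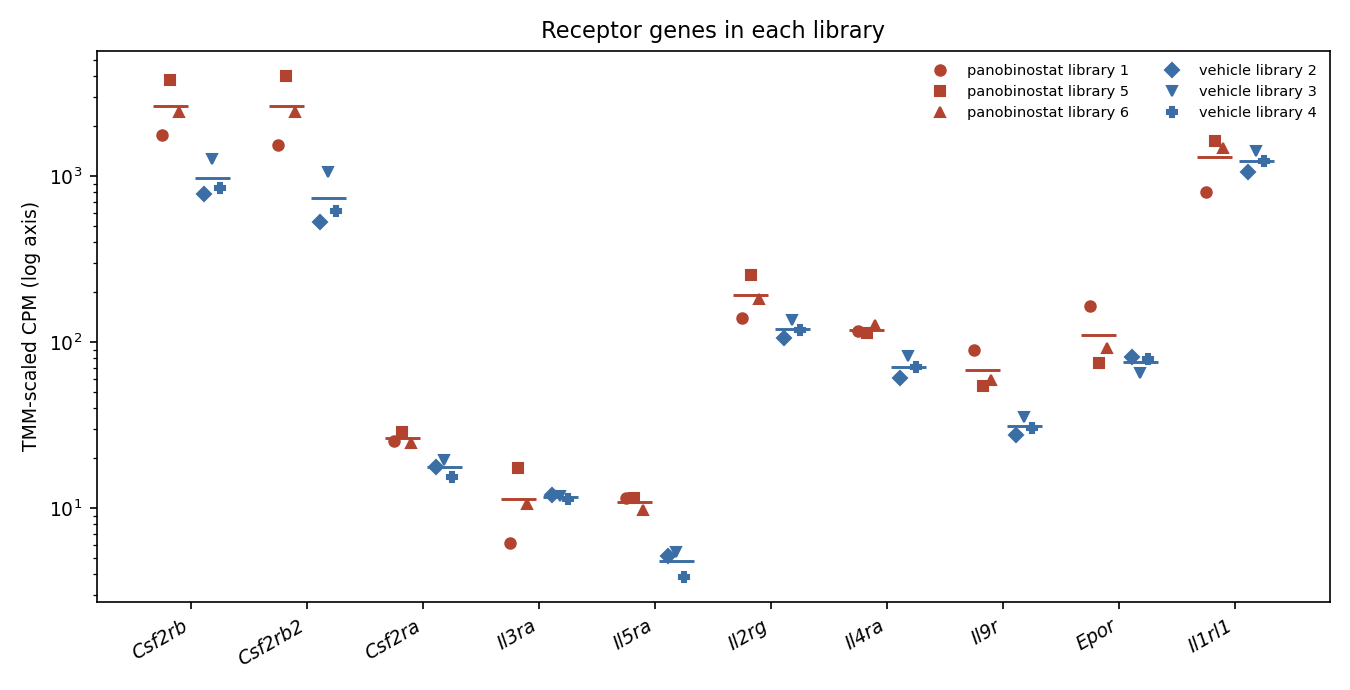
Level of each of the 10 receptor genes in each library, in TMM-scaled CPM on a log axis; each symbol is 1 library and each bar is the mean of 3. The 3 panobinostat libraries lie above the 3 vehicle libraries for 7 genes, and panobinostat library 5 is the highest library for 7 genes.

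Csf2rb (Entrez 12983), on mouse chromosome 15 at 78325800 to 78351001 of GRCm38, plus strand, was at 1771, 3769 and 2427 CPM in panobinostat libraries 1, 5 and 6, against 783, 1270 and 845 CPM in vehicle libraries 2, 3 and 4. Panobinostat library 5 was the highest, and the lowest panobinostat library lay above the highest vehicle library. The group means were 2655 ± 1018 CPM with panobinostat and 966 ± 265 CPM with vehicle (SD, n = 3 each), a log2 fold change of 1.46 ± 0.30 (SE). Csf2rb2 (Entrez 12984), at 78282507 to 78305721 of the same chromosome on the minus strand, was at 1543, 4009 and 2416 CPM in panobinostat libraries 1, 5 and 6, against 531, 1052 and 618 CPM in vehicle libraries 2, 3 and 4. Its libraries stood in the same order as those of Csf2rb. The log2 fold change of Csf2rb2 was 1.86 ± 0.39 (SE). By CPM, Csf2rb2 and Csf2rb stood at positions 12 and 13 of the 12916 tested genes with panobinostat and at positions 111 and 70 with vehicle. Per kilobase of exon they stood at positions 46 and 83 of 11592 genes with panobinostat and at positions 206 and 255 with vehicle. The fold change of Csf2rb lay between 2.17, without panobinostat library 5, and 3.25 when single libraries were left out, and that of Csf2rb2 between 2.70, again without panobinostat library 5, and 4.61, and the call of each was lost without vehicle library 2 or 4.

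The spread of the beta chains followed single libraries in both groups. The highest panobinostat library held 2.13 times the Csf2rb of the lowest and 2.60 times the Csf2rb2, and the highest vehicle library held 1.62 and 1.98 times the lowest. Panobinostat library 5 was also the one with the highest summed mast cell markers and panobinostat library 1 the one with the lowest, and vehicle library 3 was the highest vehicle library in both measures. The part of that difference in the beta chain values was not tested.

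Csf2rb and Csf2rb2 face away from each other with 20.1 kb between their starts, and they share sequence. Of all stretches of 50 bases in their longest transcripts, 18.4% of those in Csf2rb and 19.0% of those in Csf2rb2 occur unchanged in the other, and at 100 bases 6.96% and 7.20% do. The sources used here do not give the read length or how reads with several placements were counted, so the split of counts between the pair is uncertain. With the counts of the pair summed as 1 gene, that sum was called higher, and 5 of 9 entries were called. Per kilobase of exon, the ratio of Csf2rb2 to Csf2rb was 1.34, 1.63 and 1.53 in panobinostat libraries 1, 5 and 6 and 1.04, 1.27 and 1.12 in vehicle libraries 2, 3 and 4. The groups did not overlap in this ratio. With the length of the longest transcripts, 4740 bases for Csf2rb2 and 4900 for Csf2rb, in place of all exon bases, the ratio was 0.901, 1.10 and 1.03 with panobinostat and 0.701, 0.856 and 0.756 with vehicle, so which chain was the more abundant depended on the length used.

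The alpha chains, which bind the ligand, were present at far lower levels, and their groups were apart in Csf2ra and Il5ra and overlapped in Il3ra. Csf2ra (Entrez 12982, chromosome 19 at 61217191 to 61228461, minus strand), the GM-CSF binding chain, was at 25.4, 28.9 and 24.7 CPM in panobinostat libraries 1, 5 and 6, against 17.8, 19.6 and 15.5 CPM in vehicle libraries 2, 3 and 4. The groups lay apart and each was narrow. Csf2ra had a log2 fold change of 0.58 ± 0.13 (SE), and its call was lost without vehicle library 2, vehicle library 4 or panobinostat library 5, with log2 fold changes of 0.49 to 0.66 over the single omissions. Il5ra (Entrez 16192, chromosome 6 at 106710375 to 106749037, minus strand), which binds IL-5, the eosinophil growth factor, was at 11.5, 11.6 and 9.74 CPM with panobinostat, against 5.14, 5.46 and 3.87 CPM with vehicle. Every panobinostat library held more than every vehicle library. For Il5ra this came to a log2 fold change of 1.18 ± 0.19 (SE), between 1.05 and 1.28 when single libraries were left out, and it was called in each of those fits.

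Il3ra (Entrez 16188, chromosome 14 at 14345912 to 14355493, plus strand), the partner of both beta chains in the IL-3 receptor, was at 6.16, 17.5 and 10.7 CPM in panobinostat libraries 1, 5 and 6, against 12.05, 11.8 and 11.3 CPM in vehicle libraries 2, 3 and 4. The vehicle libraries were nearly equal, and the panobinostat libraries spread on both sides of them, 2.83 times from the lowest to the highest. The log2 fold change was -0.04 ± 0.34 (SE) and it was not called. Leaving out panobinostat library 1 turned the sign, to 0.26, and single omissions spanned -0.48 to 0.26, so no direction can be given. Within each library, the ratio of Csf2rb2 to Il3ra per kilobase was 157, 144 and 142 in panobinostat libraries 1, 5 and 6, against 27.6, 55.8 and 34.1 in vehicle libraries 2, 3 and 4. The panobinostat ratios were close to each other although both genes varied more than 2-fold among those libraries. The ratio of Csf2rb to Csf2ra per kilobase was 27.5, 51.5 and 38.8 with panobinostat and 17.4, 25.6 and 21.5 with vehicle, and that of Csf2rb to Il5ra overlapped between groups, at 75.4, 159 and 122 with panobinostat and 74.9, 114 and 107 with vehicle.

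Il2rg (Entrez 16186, X chromosome at 101264385 to 101268255, minus strand), the gamma chain shared by the receptors for IL-2, IL-4, IL-7, IL-9, IL-15 and IL-21, was at 139, 254 and 182 CPM in panobinostat libraries 1, 5 and 6, against 105, 136 and 119 CPM in vehicle libraries 2, 3 and 4. The groups lay apart by a narrow margin, between panobinostat library 1 and vehicle library 3. Its log2 fold change was 0.67 ± 0.22 (SE). It was not called with all 6 libraries, and was called by DESeq2 and without panobinostat library 1, where the log2 fold change was 0.86. Il4ra (Entrez 16190, chromosome 7 at 125552271 to 125579474, plus strand), the IL-4 binding chain that signals to STAT6, was at 117, 114 and 127 CPM with panobinostat, against 60.6, 82.0 and 71.4 CPM with vehicle. Its panobinostat libraries differed by at most 1.11 times, the narrowest spread of the 10 genes in that group. With a log2 fold change of 0.74 ± 0.12 (SE), it was called, but not without vehicle library 4, and single omissions gave 0.63 to 0.85. The ratio of Il2rg to Il4ra per kilobase overlapped between groups, at 2.98, 5.62 and 3.61 with panobinostat and 4.38, 4.17 and 4.19 with vehicle.

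Il9r (Entrez 16199, chromosome 11 at 32187544 to 32205283, minus strand), the chain that binds IL-9, a mast cell and T cell cytokine, was at 89.6, 54.8 and 58.9 CPM in panobinostat libraries 1, 5 and 6, against 27.7, 35.4 and 30.3 CPM in vehicle libraries 2, 3 and 4. The groups lay apart, and panobinostat library 1, the lowest of its group for the beta chains, was here the highest. Il9r had a log2 fold change of 1.12 ± 0.20 (SE), and 0.87 without panobinostat library 1. Its call was lost without vehicle library 2 or 4. Epor (Entrez 13857, chromosome 9 at 21958897 to 21963576, minus strand), whose protein acts as a pair of itself and drives erythroid survival, was at 166, 74.9 and 91.9 CPM in panobinostat libraries 1, 5 and 6, against 81.7, 65.5 and 79.1 CPM in vehicle libraries 2, 3 and 4. Panobinostat library 1 was high, library 5 lay within the vehicle range and library 6 above it. Its log2 fold change was 0.56 ± 0.28 (SE), not called, and 0.15 without panobinostat library 1. That library also had the highest hemoglobin share and the highest erythroid marker sum, measures that share the globin counts. The part of these measures in Il9r and Epor was not tested.

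Il1rl1 (Entrez 17082, chromosome 1 at 40404864 to 40465418, plus strand), the IL-33 receptor, was abundant in both groups, at 802, 1624 and 1466 CPM in panobinostat libraries 1, 5 and 6, against 1057, 1421 and 1238 CPM in vehicle libraries 2, 3 and 4. The groups overlapped, with panobinostat libraries at both ends. Its log2 fold change was 0.07 ± 0.26 (SE), not called, and it lay below 0 without vehicle library 2 (-0.04), panobinostat library 5 (-0.13) or panobinostat library 6 (-0.03), and when libraries were scaled by their size alone (-0.03). Its co-receptor Il1rap was at 13.1, 10.1 and 13.05 CPM with panobinostat and 16.0, 14.6 and 14.5 CPM with vehicle, apart but not called (edgeR adjusted p = 0.16). Per kilobase, Il1rl1 exceeded Il1rap by 101, 264 and 185 times with panobinostat and by 109, 160 and 141 times with vehicle.

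Divided by exon length, so that genes can be set against each other, the receptors spanned from 560 ± 264 CPM per kb for Csf2rb2 to 3.07 ± 0.30 CPM per kb for Il5ra with panobinostat, and from 180 ± 26.4 CPM per kb for Il1rl1 to 1.35 ± 0.24 CPM per kb for Il5ra with vehicle (SD, n = 3 each). With panobinostat the order was Csf2rb2, Csf2rb (365), Il1rl1 (188), Il2rg (80.2), Epor (55.7), Il4ra (19.85), Il9r (13.7), Csf2ra (9.17), Il3ra (3.85) and Il5ra, with mean CPM per kb in parentheses. Neighbours in that order whose libraries overlapped were Csf2rb2 and Csf2rb, Il2rg and Epor, and Il3ra and Il5ra. With vehicle the order was Il1rl1, Csf2rb2 (155), Csf2rb (133), Il2rg (50.3), Epor (37.9), Il4ra (11.9), Il9r (6.29), Csf2ra (6.135), Il3ra (3.955) and Il5ra. There the overlapping neighbours were Il1rl1 and Csf2rb2, Csf2rb2 and Csf2rb, and Il9r and Csf2ra. With all exon bases as the length, both beta chains stood above Il1rl1 in each panobinostat library. In each vehicle library Csf2rb stood below Il1rl1. Csf2rb2 stood below Il1rl1 in vehicle libraries 2 and 4 and above it in vehicle library 3. The vehicle ranges of both beta chains overlapped that of Il1rl1. The order of the mean levels of the other 7 genes was the same in both groups. As for the beta chain pair, an order between genes can depend on the length used, and the longest transcripts were not used here.

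**Figure D2:**
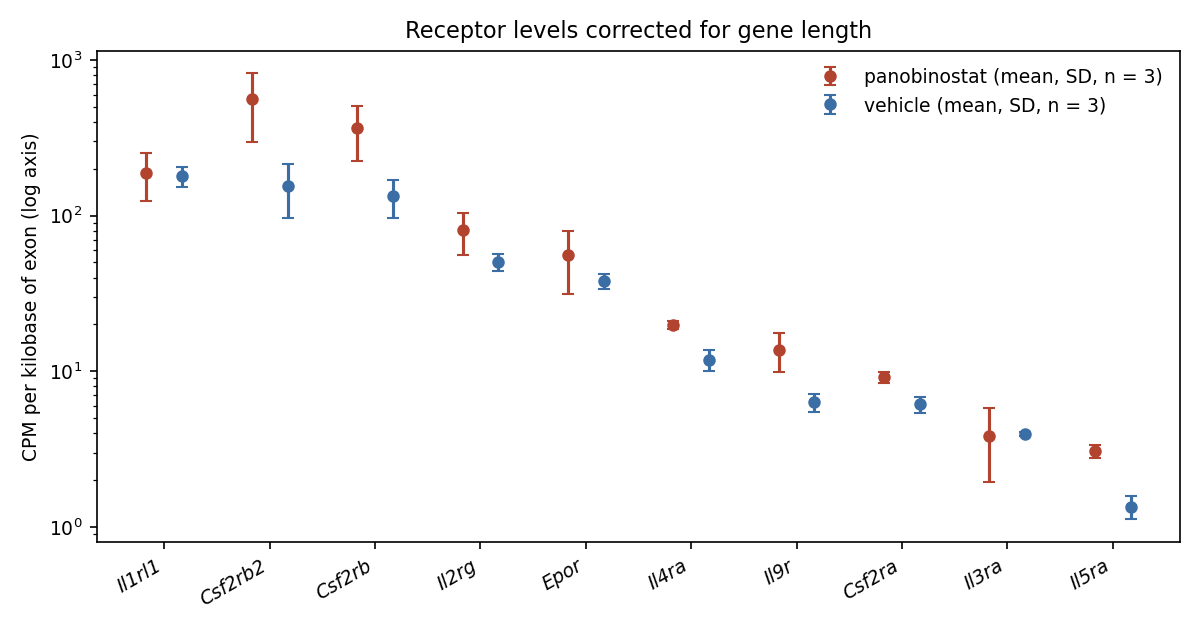
Mean level of each receptor gene in CPM per kilobase of exon on a log axis, with SD over 3 libraries, panobinostat left of vehicle, ordered by the vehicle mean. Csf2rb2 stands at 560 with panobinostat and 155 with vehicle, while Il1rl1 stands at 188 and 180.

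Of 25 further class I cytokine receptor chains 10 were abundant enough to test, and 1 was called: Il12rb2, a chain of the IL-12 receptor, was lower at 10.2, 16.9 and 15.6 CPM with panobinostat, against 26.6, 36.4 and 29.2 CPM with vehicle (edgeR adjusted p = 0.015). That call was lost without vehicle library 2 or 4, with log2 fold changes of -1.25 to -0.92 over the single omissions. The median log2 fold change of the 10 was 0.339, and 21.0% of all tested genes were called. Csf3r, the G-CSF receptor, was not called by edgeR (adjusted p = 0.061) at 4.83, 0.968 and 0.914 CPM in panobinostat libraries 1, 5 and 6, against 0.452, 0.567 and 0.343 CPM in vehicle libraries 2, 3 and 4. Its groups lay apart, its 4.91-fold difference was 2.06-fold without panobinostat library 1, and it was called by DESeq2, with no filter but 1 count and without panobinostat library 5 or 6. Il27ra, a chain of the IL-27 receptor, lay apart as well, at 5.67, 15.0 and 10.9 CPM with panobinostat and 5.33, 5.50 and 5.59 CPM with vehicle (edgeR adjusted p = 0.081), and was called by DESeq2 and without panobinostat library 1. The other 15 had group means of at most 0.229 CPM, among them Il2rb and Il7r, partners of the gamma chain, and Ghr, Cntfr, Il23r and Il13ra2 had no count in any library. Kit, the stem cell factor receptor, which is of the tyrosine kinase family, was at 163.5, 321 and 229 CPM with panobinostat and 221, 217 and 210 CPM with vehicle, with panobinostat on both sides of vehicle (edgeR adjusted p = 0.68).

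Of 9 other receptors of the IL-1 family 6 were tested and 2 were called, both higher, beside 21.0% called of all tested genes. Il1r1, the signalling IL-1 receptor, was at 31.65, 26.8 and 27.2 CPM with panobinostat and 21.1, 20.9 and 16.6 CPM with vehicle (edgeR adjusted p = 0.031). Il1r2, the decoy IL-1 receptor, was at 1.01, 4.23 and 2.68 CPM with panobinostat and 0.549, 0.851 and 0.685 CPM with vehicle (edgeR adjusted p = 0.040). Both calls were lost when vehicle library 2, 3 or 4 or panobinostat library 6 was left out, that of Il1r2 also without panobinostat library 5 and under limma-voom, and that of Il1r1 when libraries were scaled by size alone. The log2 fold change of Il1r1 stayed between 0.44 and 0.61 and that of Il1r2 between 1.41 and 2.31 over the single omissions. Of 11 signalling genes below the IL-33 receptor, Irak1, a kinase of the Myd88 complex, was called, at 174 ± 11.0 CPM with panobinostat and 140 ± 7.85 CPM with vehicle (edgeR adjusted p = 0.046), and the call was kept without panobinostat library 1. It was lost in the 5 other single omissions, with library size alone or upper-quartile factors, and with no filter but 1 count. Myd88 itself was at 91.7 ± 7.32 CPM with panobinostat and 84.3 ± 9.535 CPM with vehicle (edgeR adjusted p = 0.47).

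Little RNA of the ligands was present in the sorted cells. Of 13 ligands 2 were abundant enough to test and neither was called by edgeR, although both had an unadjusted p under 0.05. Il4 was at 20.6, 23.0 and 17.3 CPM with panobinostat, against 15.25, 17.0 and 14.9 CPM with vehicle (edgeR adjusted p = 0.10, range over the single omissions 0.068 to 0.28). Il15, a ligand of the gamma chain, was at 6.10, 10.3 and 7.60 CPM with panobinostat, against 4.52, 5.71 and 4.56 CPM with vehicle (edgeR adjusted p = 0.073), and was called by DESeq2 and without panobinostat library 1. Il3, Il9, Il33 and Epo had no count in any library, which allows a level of up to 0.0946 to 0.121 CPM per library (3 counts), and the group means of the remaining ligands were at most 0.290 CPM.

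All 24 kinases, phosphatases, adaptors and STAT factors of these receptors were tested and 5 were called, each higher, beside 21.0% called of all tested genes. The list had a median log2 fold change of 0.181. Jak2, the kinase bound to the beta chains and to Epor, was at 268, 286 and 294 CPM with panobinostat, against 228, 226 and 230 CPM with vehicle, a log2 fold change of 0.31 ± 0.08 (SE, edgeR adjusted p = 0.037). Jak3, the kinase of the gamma chain, was at 32.2, 56.5 and 41.9 CPM with panobinostat, against 24.0, 26.3 and 20.8 CPM with vehicle, a log2 fold change of 0.88 ± 0.21 (SE, edgeR adjusted p = 0.027). Both sets of libraries lay apart, and the groups of Jak2 were much the tighter. Stat3, Pik3r1, a subunit of PI3 kinase, and Inpp5d, the phosphatase SHIP-1, made up the rest, with log2 fold changes of 0.49 to 0.53. All 5 calls were lost when vehicle library 2, 3 or 4 was left out, 3 of them remained without panobinostat library 5 and 2 without panobinostat library 6, and 10 genes were called higher and 1 lower without panobinostat library 1. Those of Jak2 and Inpp5d were also lost when libraries were scaled by size alone, and that of Jak2 with no filter but 1 count. The STAT5 genes were not called. Stat5a was at 230, 267 and 265.5 CPM with panobinostat, against 298, 298 and 292.5 CPM with vehicle (edgeR unadjusted p = 0.0466, adjusted p = 0.13). Stat5b was at 282 ± 5.94 CPM with panobinostat, against 305 ± 10.1 CPM with vehicle (edgeR adjusted p = 0.36). The groups of both genes lay apart, lower with panobinostat. In 44.6% of all tested genes the groups did not overlap.

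Known target genes of STAT5 and STAT6 were a mixed group. Of 23 found 21 were tested, 7 were called higher and 1 lower, and the median log2 fold change was 0.203. Over all tested genes the shares were 11.3% higher and 9.72% lower. This list was chosen with earlier results of these data known, so nothing is read from these shares. Cish, a feedback inhibitor induced by STAT5, was at 151, 155 and 133 CPM with panobinostat, against 106, 99.0 and 72.3 CPM with vehicle (edgeR adjusted p = 0.025). Pim1, a survival kinase, was at 406, 373 and 315 CPM with panobinostat, against 261, 230.5 and 179 CPM with vehicle (edgeR adjusted p = 0.024). Socs2, another STAT5-induced inhibitor, was at 51.6, 84.7 and 70.85 CPM with panobinostat, against 79.4, 84.1 and 83.9 CPM with vehicle, and was not called (edgeR adjusted p = 0.31). Among the genes known as IL-4 and STAT6 targets, Tgm2, a transglutaminase, was at 108, 46.25 and 45.6 CPM with panobinostat, against 7.21, 4.75 and 5.04 CPM with vehicle, an 11.7-fold difference (edgeR adjusted p = 0.0042), and Ccl17, a chemokine, was at 8.25, 8.19 and 7.095 CPM with panobinostat, against 2.84, 3.55 and 3.36 CPM with vehicle (edgeR adjusted p = 0.0065). Erfe, the erythroid hormone erythroferrone induced by erythropoietin, was lower, at 1.14, 1.09 and 1.39 CPM with panobinostat, against 6.59, 3.01 and 2.85 CPM with vehicle (edgeR adjusted p = 0.020). Bcl2l1, the survival protein BCL-XL, Ccnd3, a cyclin, and Gfi1b, an erythroid and megakaryocyte repressor, were the other higher ones, at 2.08-fold, 2.01-fold and 3.08-fold, and without panobinostat library 1 Gfi1b was 2.01-fold higher. Tgm2 and Ccl17 were called in each fit without a single library. The calls of the other 6 were lost without vehicle library 2 or 4, so that 2 of the 8 stayed there. Those of Cish, Pim1 and Gfi1b were also lost without vehicle library 3, and those of Cish, Pim1 and Erfe without panobinostat library 5.

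Of 12 tested transcription factors of the lineages that use these receptors 6 were called higher and 1 lower, with a median log2 fold change of 0.524. Beside these counts, 11.3% of all tested genes were called higher and 9.72% lower. This list too was chosen with earlier results known, so nothing is read from these counts. Gata2, a factor of mast cells and progenitors, was at 619, 751 and 609 CPM with panobinostat, against 345.5, 436 and 372 CPM with vehicle (edgeR adjusted p = 0.011). Gata1, the erythroid, megakaryocyte and mast cell factor, was at 441.5, 315 and 323 CPM with panobinostat, against 262, 246 and 255 CPM with vehicle (edgeR adjusted p = 0.045), and lost its call with library size alone, with upper-quartile factors and without vehicle library 2, 3 or 4 or panobinostat library 6. Myb, Tal1, Zfpm1 and Spi1 were higher by log2 values of 0.42 to 0.79, and Spi1 lost its call with library size alone. Bach2, a repressor best known in lymphocytes, was 2.91-fold lower, at 3.78, 5.20 and 5.90 CPM with panobinostat, against 11.9, 15.6 and 15.8 CPM with vehicle (edgeR adjusted p = 0.0065). The higher calls were all lost without vehicle library 2 or 4. Those of Myb, Zfpm1 and Spi1 were also lost without vehicle library 3, and that of Spi1 without panobinostat library 5. The call of Bach2 held in each fit without a single library.

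**Figure D3:**
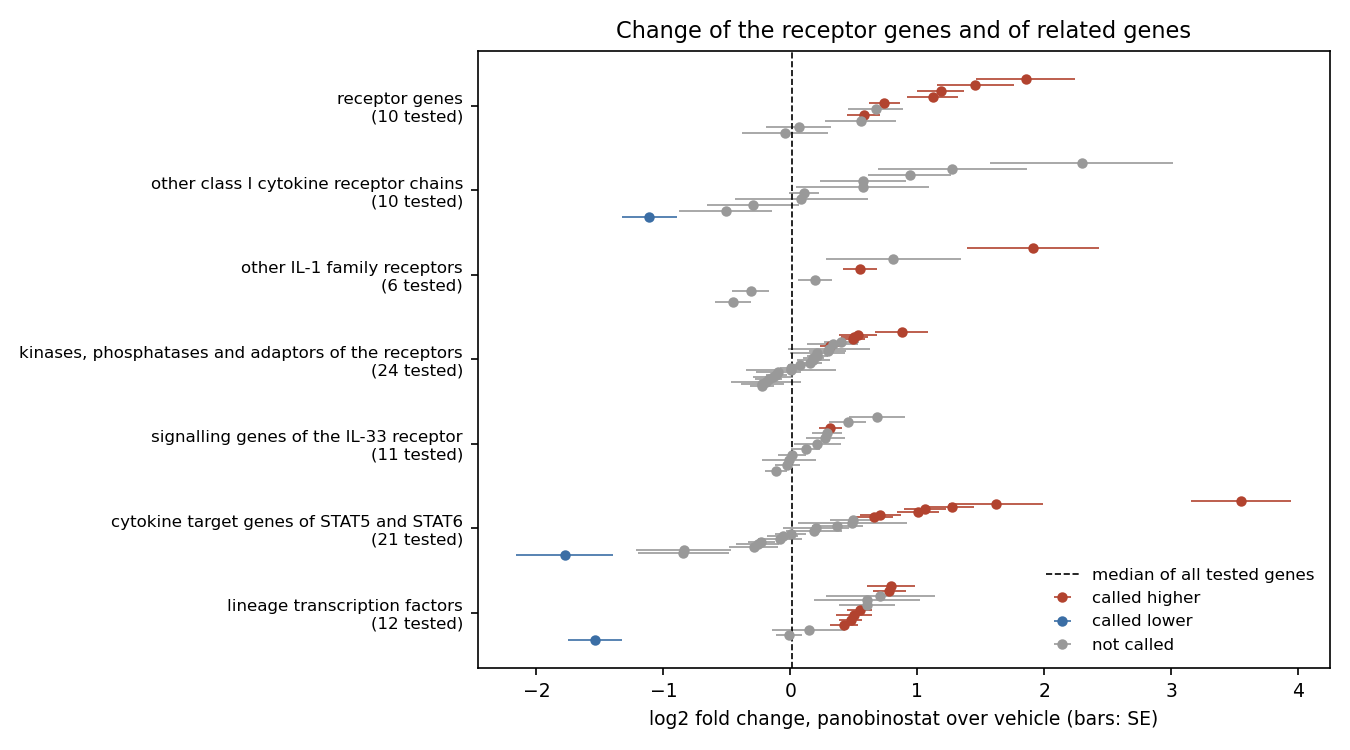
Log2 fold change, panobinostat over vehicle, of the 10 receptor genes and of each tested gene of 6 related lists; points are genes, bars are SE, colors give the edgeR call and the dashed line is the median of all tested genes. The receptor genes have a median of 0.706, against 0.339 for other class I receptor chains and 0.181 for the kinases, phosphatases and adaptors, whose list includes STAT factors.

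Position in the genome was not used to choose the receptors. Within 100 kb of a member lay 48 other genes, of which 36 were tested and 8 were called, each higher, set beside 21.0% called of all tested genes. Of these 8, 6 lay beside Il9r, which stands next to the alpha-globin genes on chromosome 11. Rhbdf1, 4.3 kb from Il9r, was at 93.3, 53.7 and 51.2 CPM in panobinostat libraries 1, 5 and 6, against 25.0, 31.0 and 28.9 CPM in vehicle libraries 2, 3 and 4 (edgeR adjusted p = 0.015). Its library order within panobinostat was led by library 1, as that of Il9r was, and its call, like that of Il9r, was lost without vehicle library 2 or 4. Snrnp25, which lies between the 2 genes and 132 bases from Il9r, was at 41.7, 31.7 and 32.7 CPM with panobinostat, against 29.2, 30.6 and 31.7 CPM with vehicle, and was not called (edgeR adjusted p = 0.27). Mpg and Nprl3, which follow, were not called either, with log2 fold changes of 0.66 ± 0.21 and 0.57 ± 0.20 (SE), but DESeq2 called both. Mpg, whose groups lay apart, was also called without panobinostat library 1 or 6.

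Farther along, 71.3 to 94.8 kb from Il9r, all 5 globin genes were called. Hba-x, the embryonic alpha-like globin, was at 6.81, 14.2 and 8.48 CPM with panobinostat, against 0.226, 0.106 and 0.0685 CPM with vehicle, so that its vehicle libraries held only a few counts (edgeR adjusted p = 0.0016). The adult genes Hba-a1 and Hba-a2, near-identical copies that may share reads, were 5.82-fold and 6.16-fold higher (edgeR adjusted p = 0.0049 and 0.0051), and Hbq1a and Hbq1b, the theta-like copies, 8.72-fold and 9.57-fold higher (edgeR adjusted p = 0.0062 and 0.0050). These 5 calls held in each fit without a single library. The remaining called neighbours were Plppr2, 9.99 kb from Epor, at 1.53, 1.57 and 1.04 CPM with panobinostat and 0.323, 0.355 and 0.411 CPM with vehicle (edgeR adjusted p = 0.0098), a call lost without vehicle library 2 or 4, and Il1r1, described above, 88.7 kb from Il1rl1. Between Csf2rb2 and Csf2rb no other gene was listed, and Ncf4, 19.9 kb from Csf2rb2, was not called (edgeR adjusted p = 0.097).

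**Figure D4:**
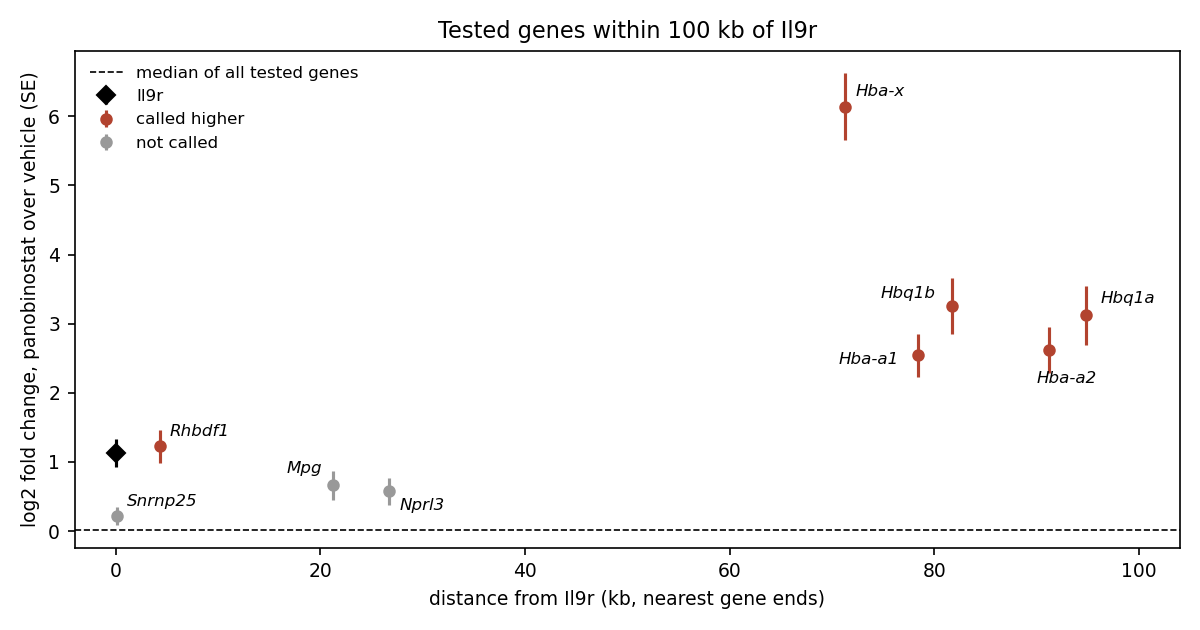
Log2 fold change, panobinostat over vehicle, of each tested gene within 100 kb of Il9r against its distance in kb between nearest gene ends; points are genes and bars are SE. Il9r and Rhbdf1 stand at 1.12 and 1.23, Snrnp25 between them at 0.21, and the adult globin genes Hba-a1 and Hba-a2 at 2.54 and 2.62.

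The genes whose levels ran most like Csf2rb over the 6 libraries, by the root mean square difference of centred log2 CPM among 10072 other genes of at least 5 CPM, and that are no member, were Rnase6 (0.0933), Bcam (0.113) and Cdkn1a (0.140). Rnase6, a secreted ribonuclease, was at 60.6, 137 and 85.9 CPM in panobinostat libraries 1, 5 and 6, against 31.6, 49.3 and 33.7 CPM in vehicle libraries 2, 3 and 4. It repeats the order of the 6 libraries seen in Csf2rb. Cdkn1a, the cell cycle inhibitor p21, was at 290, 598 and 417 CPM with panobinostat, against 118.5, 241 and 168 CPM with vehicle. On the same measure Csf2rb2 differed from Csf2rb by 0.228, at position 43, with the same order of libraries. Nothing about shared function or control follows from this likeness.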

How the data were processed

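RNA was measured by sequencing in 6 libraries of sorted leukemia cells. The authors deposited whole-number read counts per gene by Entrez ID, 1 column per library, and per the submitters' processing notes worked on mm10 with HISAT2 2.1.0, featureCounts (Subread 2.0.0), cutadapt 2.1, limma, FastQC 0.11.6 and bcl2fastq 2.17.1.14. The gene annotation, strandedness and treatment of multi-mapping reads are not given in the sources used. Per the labels' protocols, libraries were TruSeq RNA from total RNA.

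From these counts the following was computed. Symbols and positions came from RefSeq for GRCm38 (25275 IDs) and GENCODE (18), and 1886 IDs stayed unnamed. Columns were tied to groups by treated or control in their names, which tie no column to a numbered replicate, and 0 columns were left unused. Low-count genes were removed with filterByExpr, libraries were scaled by TMM, and panobinostat was compared with vehicle by the quasi-likelihood F test of edgeR 4.0.16 in R 4.3.3, fitted with no covariate beside treatment and adjusted by Benjamini-Hochberg over the 12916 genes tested (common biological coefficient of variation 0.195). Standard errors were taken from each log2 fold change and its F value (its size over the root of F). Levels per kilobase use all exon bases of a gene in GENCODE. The test was checked on simulated counts. No label says that the libraries came from separate mice, so p-values measure the spread between libraries, and the value of a count covers counting error only. Exact permutation of 3 against 3 libraries reaches a p of 0.1 at the smallest.

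The members and the gene lists were chosen with earlier results of these data known. Named genes are the members, up to 4 called genes of smallest p in each list, called neighbours within 100 kb, the 3 genes most like Csf2rb, and genes always named such as Jak2, Stat5a, Stat5b, Cish, Pim1, Socs2, Il1rap, Kit, Gata1 and Gata2. Genes outside that rule, such as Snrnp25, Mpg, Nprl3, Ncf4, Myd88, Csf3r, Il27ra, Il2rb, Il7r, Il4 and Il15 and the further called genes, were named after their values were seen. Alternatives were DESeq2 1.42.0, limma-voom (limma 3.58.1), other scalings and filters, robust shrinkage, the beta chain pair summed, and leaving out each library.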

Additional observations from a re-analysis of the deposited data

How the results depend on the processing

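Of 149 log2 fold changes of the receptor genes under 15 alternatives, 131 kept their direction and their side of the threshold, 10 lost a call, 2 gained one and 6 changed sign. The sign changes were in Il3ra, at 0.256 without panobinostat library 1 and 0.00559 without panobinostat library 6, with single omissions spanning -0.48 to 0.256, and in Il1rl1, at -0.0325 with library size alone, with single omissions spanning -0.127 to 0.32 (-0.0372 without vehicle library 2 and -0.0295 without panobinostat library 6). Among 60 other genes under 14 alternatives, Kit changed sign, at -0.138 without panobinostat library 5 (single omissions -0.138 to 0.348), 98 of 840 values lost a call and 23 gained one. The number of receptor genes called was 6 and ranged from 1 to 7 over the single omissions (2 without vehicle library 2, 1 without vehicle library 4), with 7 under DESeq2. The number of all genes called ranged from 438 to 4056 over the single omissions, against 2715: leaving out vehicle library 2, 3 or 4 gave 609, 1259 and 438, panobinostat library 5 gave 1637 and panobinostat library 1 gave 4056. It was 2564 to 3566 under the other alternatives. With library size alone the log2 fold changes of all genes had a median of -0.095, against 0.01 with TMM, and the share of calls that were higher was 35.5%, against 53.8%. The causes of these shifts were not tested. No paired analysis was possible because the count columns carry no number that a label ties to a replicate. Depth limits the ligands and rarer receptors, where 1 count is worth 0.0315 to 0.0403 CPM.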
